A study of Bos taurus with 7 samples.

Results

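Cholesterol synthesis and uptake genes were described in bovine ovarian follicles at the secondary and the primary stage. The set was a list of 28 genes given by name and ordered by role. It held 18 synthesis enzymes, 5 genes that control synthesis and 5 genes of uptake and transport. Transcripts were found for 27 of the 28 genes, out of 23704 genes with a matched transcript. *STARD4*, a soluble sterol carrier, had no matched transcript and is named only.

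The 7 libraries came from follicles isolated mechanically from bovine (Holstein Friesian) ovaries. The follicles were not cultured beyond a short recovery after isolation, in medium that held insulin and FSH. Secondary follicles (SF), with several layers of granulosa cells around the oocyte, gave 3 libraries. Primary follicles (PF), with a single layer of cuboidal granulosa cells, gave 4 libraries. Each library was a pool of follicles of its class, with oocyte and granulosa cells together and no further treatment described in either group. Values are in TPM (abundance scaled for transcript length and library size), summed over the transcripts of a gene. PF replicate 4 was left out of the comparison by stage, since the study's methods leave out 1 PF library that stood apart, and its value is given for each member beside the others.

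Cholesterol is made from acetyl-CoA through mevalonate and farnesyl diphosphate, then through squalene and lanosterol to the finished sterol. When sterol in the endoplasmic reticulum is low, SCAP carries the SREBP transcription factors to the Golgi for cleavage, and the released factors switch on genes of synthesis and uptake. When sterol is high, the INSIG proteins hold SCAP back, while LXR receptors switch on genes of efflux such as *ABCA1*. In mouse, the oocyte is known to make little cholesterol of its own and to draw on the granulosa cells around it.

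The 7 libraries held 18788105 to 23764615 estimated counts, of which 9.71% to 10.7% fell on transcripts matched to no gene. The labelled material, oocyte and granulosa cells, was checked on marker lists. The summed level of 15 oocyte markers was 235 to 1779 TPM in SF and 2477 to 4787 TPM in PF replicates 1 to 3. For 15 granulosa markers it was 2664 to 3997 TPM in SF and 920 to 1933 TPM in PF replicates 1 to 3. Markers of both compartments were therefore found in SF and in PF replicates 1 to 3, with a lower oocyte sum and a higher granulosa sum in SF. In these libraries the highest single marker was *ZP3* (77.6 to 1809 TPM) in the oocyte list and *INHA* (481 to 1836 TPM) in the granulosa list. Transcripts of genes listed as markers of other cells were also found. In these 6 libraries they stood at 241 to 547 TPM in SF and 426 to 634 TPM in PF for 9 matched stromal fibroblast markers, and at 299 to 412 TPM in SF and 166 to 252 TPM in PF for 6 theca markers. Smooth muscle and pericyte markers (5 genes) summed to 213 to 252 TPM in SF and 69.2 to 136 TPM in PF. Endothelial markers (8 genes) summed to 20.9 to 102 TPM in SF and 34.5 to 44.6 TPM in PF. Immune markers (9 genes) summed to 4.03 to 48.2 TPM in SF and 41.3 to 89.3 TPM in PF, with *C1QA* at 0 in all libraries. In PF replicates 1 to 3 this sum was mostly *CSF1R* (89.2, 62.0 and 31.5 TPM). The stromal, smooth muscle, endothelial and theca sums also rested on few genes. In that order, *DCN* had 145 to 573 TPM, *MYH11* 48.1 to 163 TPM, *CLDN5* 17.9 to 91.7 TPM and *CYP11A1* 48.9 to 223 TPM. Of the other theca markers, *CYP17A1* was at 0 TPM in all SF libraries. *INSL3* had 112, 216 and 98.6 TPM in SF and 95.1, 37.1 and 97.2 TPM in PF replicates 1 to 3. The sums therefore do not by themselves show whether these cell types were present. In SF replicate 3 the stromal, theca and smooth muscle sums (241, 386 and 252 TPM) were above the oocyte sum (235 TPM). PF replicate 4 stood apart, with 5855 TPM of stromal markers, 1515 TPM of theca markers, 1034 TPM of smooth muscle markers and 388 TPM of oocyte markers. The part of these markers in the results below was not tested. In libraries of whole follicles, fewer cells of a type and less RNA per cell cannot be told apart.

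All 27 genes were detected in every library, over a wide range. By mean TPM, the highest genes in SF were *INSIG1* (914 TPM), *MSMO1* (584 TPM), *IDI1* (304 TPM), *SC5D* (269 TPM) and *SQLE* (231 TPM). In PF replicates 1 to 3 they were *FDPS* (395 TPM), *MSMO1* (313 TPM), *INSIG1* (222 TPM), *IDI1* (213 TPM) and *MVK* (158 TPM). The lowest mean was that of *ABCA1* at both stages. The order among the leading genes was not firm, since *INSIG1* had an SD of 898 TPM in SF and 299 TPM in PF, and *SQLE* an SD of 313 TPM in SF (n = 3 each).

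**Figure D1:**
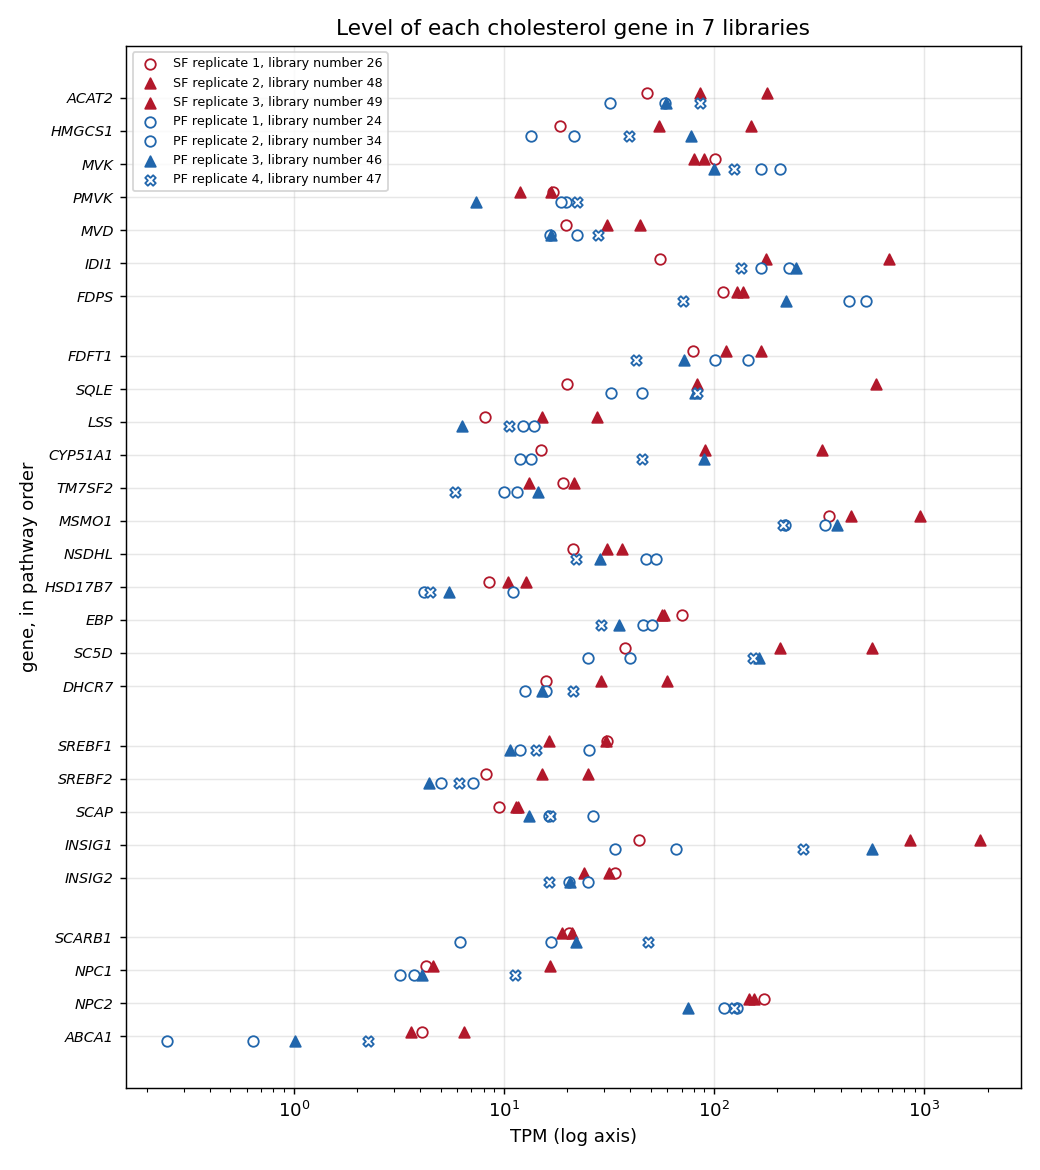
Level of each of the 27 genes in every library, in TPM on a log axis, with genes in pathway order and grouped by role. Red points are SF and blue points PF, filled triangles are libraries numbered above 40, open circles libraries numbered below 40 and crosses PF replicate 4. *INSIG1* spans the widest range, from 33.9 TPM in PF replicate 2 to 1838 TPM in SF replicate 3, while *ABCA1* lies at 3.60 TPM or more in SF and at 2.25 TPM or less in PF.

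The comparison by stage asked which of these genes differed between SF and PF. With the DESeq2 Wald test over all genes, *ABCA1*, *SREBF2* and *NPC2* were higher in SF and *FDPS* was lower in SF, and no other member passed an adjusted p of 0.05. The 3 genes called higher are 11.1% of the 27, against 8.14% of the 15056 genes tested. The 1 gene called lower is 3.70% of the 27, against 11.0% of all genes tested. Counts of 3 and 1 are too small to set the members apart from the background in either direction. The median log2 fold change (SF over PF) was 0.78 over the 27 genes and 0.02 over all genes tested, and 23 of the 27 were positive. SF and PF replicates 1 to 3 did not overlap in TPM for 5 members with SF higher and 2 with SF lower, where 14.3% and 18.5% of all genes tested did so. The study's methods call the pools biological replicates and do not say whether pools shared animals. The p-values measure the spread between these libraries, part of which may be technical. The edgeR quasi-likelihood test called 0 of the 27 members and 0 of 14293 genes. At an unadjusted p under 0.05 it gave 8 members and 3844 genes, where DESeq2 gave 10 members and 4800 genes.

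**Figure D2:**
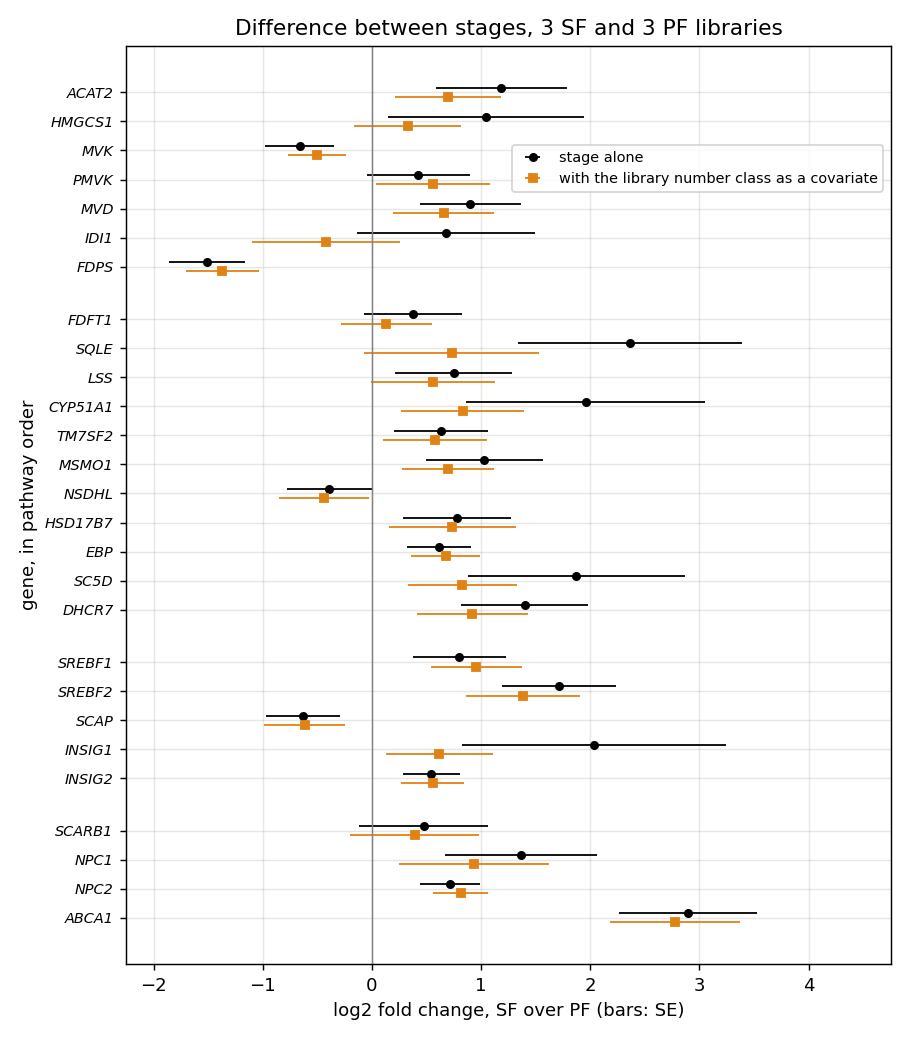
Log2 fold change SF over PF of each gene from DESeq2 (6 libraries, bars are the standard error), without and with the library number class as a covariate. Most genes lie right of 0 without the covariate, and *INSIG1*, *CYP51A1*, *SC5D* and *SQLE* lie closer to 0 with it (2.04, 1.96, 1.87 and 2.36 without it and 0.62, 0.83, 0.83 and 0.73 with it), whereas *ABCA1* (2.90 and 2.78) and *FDPS* (-1.51 and -1.37) stay close.

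In the mevalonate section, 1 of 7 genes was called. *FDPS*, which encodes farnesyl diphosphate synthase at the branch point to sterols, dolichol and prenyl groups, had 111, 129 and 138 TPM in SF, against 527, 439 and 220 TPM in PF replicates 1 to 3. The groups did not overlap, and the spread was narrow in SF and wide in PF. The log2 fold change was -1.51 ± 0.35 (SE, DESeq2 adjusted p = 0.000423). PF replicate 4 had 71.1 TPM of *FDPS*, below every other library, and with it kept the call was lost (log2 fold change -1.20, adjusted p = 0.249). The summed oocyte markers were also lower in SF (1779, 1366 and 235 TPM) and in PF replicate 4 (388 TPM) than in PF replicates 1 to 3 (4787, 4677 and 2477 TPM). Within SF, *FDPS* and the oocyte markers ran opposite ways, and SF replicate 3 had fewer oocyte markers than PF replicate 4 and more *FDPS*. The part of oocyte content in the *FDPS* difference was not tested.

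*MVK*, mevalonate kinase, had 101, 89.9 and 80.6 TPM in SF, against 166, 207 and 99.7 TPM in PF replicates 1 to 3 and 125 TPM in PF replicate 4, so that the groups met at SF replicate 1 and PF replicate 3. Its log2 fold change of -0.66 ± 0.32 did not pass the test (DESeq2 adjusted p = 0.128), but did so without PF replicate 3 (-0.84, adjusted p = 0.0223). *ACAT2*, the thiolase that joins acetyl-CoA units, had 48.0, 85.6 and 179 TPM in SF, against 58.1, 32.0 and 58.7 TPM in PF replicates 1 to 3 and 85.4 TPM in PF replicate 4. *HMGCS1*, the cytosolic HMG-CoA synthase, had 18.4, 54.9 and 149 TPM in SF, against 21.5, 13.5 and 77.3 TPM in PF replicates 1 to 3 and 39.5 TPM in PF replicate 4. Both genes spread over a wide range within each stage, and the stages overlapped. *IDI1*, the isomerase that makes dimethylallyl diphosphate, had 55.1, 177 and 678 TPM in SF, against 227, 167 and 247 TPM in PF replicates 1 to 3 and 134 TPM in PF replicate 4. Its highest and its lowest library were therefore both SF. *PMVK* and *MVD*, which carry out the phosphorylation and decarboxylation after *MVK*, lay between 12.0 and 44.3 TPM in SF and between 7.40 and 22.3 TPM in PF replicates 1 to 3 (22.3 and 28.1 TPM in PF replicate 4), with overlapping stages. The log2 fold changes of *ACAT2*, *HMGCS1*, *IDI1*, *PMVK* and *MVD* ran from 0.43 to 1.19, with adjusted p of 0.156 or more.

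In the squalene and sterol section, 0 of 11 genes were called, 10 had a positive log2 fold change, and 3 of the 11 had an unadjusted p under 0.05 with DESeq2. *SQLE*, squalene epoxidase, had 20.0, 83.2 and 591 TPM in SF, against 45.3, 32.2 and 81.2 TPM in PF replicates 1 to 3 and 82.7 TPM in PF replicate 4. Its log2 fold change of 2.36 ± 1.02 (DESeq2 adjusted p = 0.0866) rested on SF replicate 3, and without that library it was -0.03. *DHCR7*, the reductase of the last step of one route, had 15.8, 28.9 and 60.0 TPM in SF, against 15.9, 12.6 and 15.2 TPM in PF replicates 1 to 3 and 21.3 TPM in PF replicate 4. Here SF replicate 1 lay within the PF values and the other two SF libraries above all of them (log2 fold change 1.40 ± 0.58, DESeq2 adjusted p = 0.0725). *EBP*, a sterol isomerase, had 70.3, 56.2 and 58.0 TPM in SF, against 45.8, 50.5 and 35.2 TPM in PF replicates 1 to 3 and 28.8 TPM in PF replicate 4. It was the only enzyme with SF above PF in all 6 libraries, and it did not pass the test (0.62 ± 0.29, DESeq2 adjusted p = 0.123).

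*MSMO1*, the monooxygenase that starts removal of the sterol methyl groups, had 351, 450 and 951 TPM in SF, against 337, 217 and 385 TPM in PF replicates 1 to 3 and 213 TPM in PF replicate 4. *NSDHL*, the dehydrogenase that follows it, had 21.3, 31.0 and 36.6 TPM in SF, against 47.4, 53.2 and 28.6 TPM in PF replicates 1 to 3 and 22.0 TPM in PF replicate 4, and was the only gene of this section with a negative log2 fold change (-0.39 ± 0.39, DESeq2 adjusted p = 0.524). Neighbouring enzymes of one step thus differed in the direction of their values, neither of them past the test. *FDFT1*, squalene synthase, had 79.3, 114 and 168 TPM in SF, against 101, 146 and 72.3 TPM in PF replicates 1 to 3 and 42.3 TPM in PF replicate 4. *LSS*, lanosterol synthase, had 8.15, 15.2 and 27.6 TPM in SF, against 14.0, 12.3 and 6.32 TPM in PF replicates 1 to 3 and 10.6 TPM in PF replicate 4. *HSD17B7*, a sterol ketone reductase, and *TM7SF2*, a sterol reductase, were at 8.51 to 21.5 TPM in SF and 4.17 to 14.6 TPM in PF replicates 1 to 3 (4.47 and 5.83 TPM in PF replicate 4). All 4 of these genes had overlapping stages.

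*CYP51A1*, lanosterol demethylase, had 15.0, 90.4 and 326 TPM in SF, against 13.4, 11.9 and 89.1 TPM in PF replicates 1 to 3 and 45.6 TPM in PF replicate 4. *SC5D*, a sterol desaturase, had 37.6, 205 and 563 TPM in SF, against 39.8, 25.2 and 164 TPM in PF replicates 1 to 3 and 153 TPM in PF replicate 4. In both genes, SF replicate 1 was at the level of PF replicates 1 and 2, and PF replicate 3 was at or near the level of SF replicate 2. Their log2 fold changes of 1.96 ± 1.09 and 1.87 ± 0.99 did not pass the test (DESeq2 adjusted p = 0.203 and 0.176).

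Among the control genes, 1 of 5 was called. *SREBF2*, the SREBP gene that acts mainly on cholesterol genes, had 8.19, 15.1 and 25.2 TPM in SF, against 7.16, 5.00 and 4.39 TPM in PF replicates 1 to 3, with 6.13 TPM in PF replicate 4. The stages did not overlap, although SF replicate 1 lay close to PF replicate 1. The log2 fold change was 1.71 ± 0.52 (DESeq2 adjusted p = 0.0102), and the call was lost without PF replicate 2 (adjusted p = 0.0711) and with edgeR (adjusted p = 0.0754). *SREBF1*, whose products act more on fatty acid genes, had 31.0, 30.6 and 16.4 TPM in SF, against 25.5, 11.9 and 10.7 TPM in PF replicates 1 to 3 and 14.2 TPM in PF replicate 4, with overlapping stages (0.80 ± 0.43, DESeq2 adjusted p = 0.180). *SCAP*, the escort of both factors, had 9.52, 11.7 and 11.5 TPM in SF, against 26.5, 16.4 and 13.1 TPM in PF replicates 1 to 3 and 16.6 TPM in PF replicate 4. Its SF libraries all lay below its PF libraries, and the difference did not pass the test (-0.63 ± 0.34, DESeq2 adjusted p = 0.181).

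*INSIG1*, the retention factor that is itself an SREBP target, had 43.9, 859 and 1838 TPM in SF, against 66.2, 33.9 and 567 TPM in PF replicates 1 to 3, with 264 TPM in PF replicate 4. The highest library was 54.1 times the lowest, the widest range of the 27 genes, and the stages overlapped (2.04 ± 1.21, DESeq2 adjusted p = 0.236). *INSIG2*, its relative that is not driven by SREBP, had 33.8, 31.7 and 24.0 TPM in SF, against 25.0, 20.4 and 20.5 TPM in PF replicates 1 to 3 and 16.4 TPM in PF replicate 4, the narrowest range of the 27 at 2.07 times. The pair of INSIG genes therefore held the widest and the narrowest spread of the set (*INSIG2* 0.54 ± 0.26, DESeq2 adjusted p = 0.132).

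Among the 4 measured genes of uptake and transport, 2 were called, both higher in SF. *ABCA1*, the pump that passes cholesterol to lipid-poor apolipoproteins outside the cell, had 4.10, 6.43 and 3.60 TPM in SF, against 0.644, 0.249 and 1.02 TPM in PF replicates 1 to 3. PF replicate 4 lay between, at 2.25 TPM, so that all 3 SF libraries exceeded all 4 PF libraries. The log2 fold change of 2.90 ± 0.63 was the largest of the 27 genes (DESeq2 adjusted p = 0.000191). With PF replicate 4 kept it was 2.15 and was no longer called (adjusted p = 0.0644), and edgeR gave an adjusted p of 0.0564. Within the classes of library number described below, the log2 ratio of SF over PF for *ABCA1* was 3.20 below 40 and 1.61 above 40 with PF replicate 4 included. The value below 40 rests on SF replicate 1 as the only SF library. The sign in each class was fixed by the lack of overlap between the stages and is no separate evidence.

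*NPC2*, the soluble lysosomal protein that hands cholesterol to NPC1, had 172, 155 and 146 TPM in SF, against 111, 129 and 74.8 TPM in PF replicates 1 to 3 and 124 TPM in PF replicate 4. The stages did not overlap, and the log2 fold change of 0.72 ± 0.27 just passed (DESeq2 adjusted p = 0.0464). This call was lost in 14 of 18 alternatives, with an adjusted p of 0.0124 to 0.291 over them. *NPC1*, the lysosomal membrane protein of the same route, had 4.28, 4.60 and 16.6 TPM in SF, against 3.20, 3.75 and 4.06 TPM in PF replicates 1 to 3 and 11.3 TPM in PF replicate 4. SF lay above PF replicates 1 to 3, by a wide margin only in SF replicate 3, and PF replicate 4 lay above SF replicates 1 and 2 (1.36 ± 0.70, DESeq2 adjusted p = 0.158). *SCARB1*, the receptor for high-density lipoprotein, had 20.3, 18.8 and 21.2 TPM in SF, against 6.15, 16.7 and 22.0 TPM in PF, with 48.3 TPM in PF replicate 4, the highest of all libraries. Its log2 fold change was 0.47 ± 0.59 (DESeq2 adjusted p = 0.628), with the opposite sign (-0.24) when PF replicate 4 was kept.

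Summed by role, the groups of genes differed in how they spread. The 7 mevalonate genes summed to 370, 584 and 1281 TPM in SF, against 1036, 899 and 727 TPM in PF replicates 1 to 3 and 504 TPM in PF replicate 4. The 11 squalene and sterol genes summed to 646, 1106 and 2807 TPM in SF, against 680, 576 and 896 TPM in PF replicates 1 to 3 and 629 TPM in PF replicate 4. The 5 control genes summed to 126, 948 and 1915 TPM in SF, against 150, 87.7 and 616 TPM in PF replicates 1 to 3 and 318 TPM in PF replicate 4, mostly *INSIG1* in the high libraries. In all 3 sums SF replicate 1 was below at least 1 PF library and SF replicate 3 above all of them. The 4 uptake and transport genes summed to 201, 185 and 187 TPM in SF, against 121, 150 and 102 TPM in PF replicates 1 to 3 and 186 TPM in PF replicate 4. The SF values lay above PF replicates 1 to 3 and overlapped PF replicate 4. As a description over PF replicates 1 to 3, the log2 ratio of mean sums (SF over PF) was -0.25 for mevalonate genes, 1.08 for sterol genes, 1.81 for control genes and 0.62 for uptake and transport genes. Without SF replicate 3 the ratio was -0.90 for mevalonate genes, 0.29 for sterol genes and 0.92 for control genes. It was 0.07 for mevalonate genes without SF replicate 1, with the sign turned, and 3.07 for control genes without PF replicate 3.

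**Figure D3:**
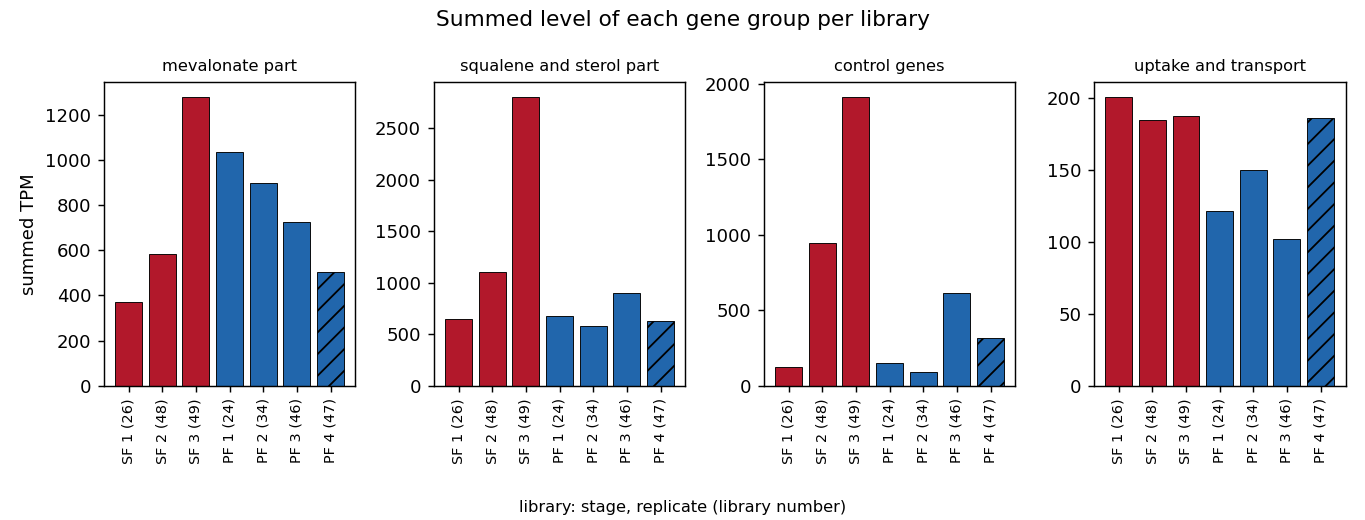
Summed TPM of the genes of each role in every library, SF in red and PF in blue, bars from 0, PF replicate 4 hatched, with stage, replicate and library number under each bar. SF replicate 3 has the highest sum of mevalonate, sterol and control genes (1281, 2807 and 1915 TPM), whereas the uptake and transport genes, mostly *NPC2*, stay between 102 and 201 TPM.

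SF replicate 3 was the highest library for 15 of the 27 genes (55.6%) and 12 of the 18 enzymes, where it was the highest for 11.5% of all genes tested. This library also had the lowest sum of oocyte markers (235 TPM) and the highest of granulosa markers (3997 TPM). The part of that composition in its levels was not tested. Without it, the log2 fold changes of *HMGCS1* (-0.13), *IDI1* (-0.87), *FDFT1* (-0.05) and *SQLE* (-0.03) were negative, none of them past the test. The count of calls by stage changed most without PF replicate 3. Without it, 7 members were called higher in SF, namely *ABCA1*, *SREBF2*, *INSIG1*, *CYP51A1*, *SC5D*, *HMGCS1* and *SQLE*, and 2 lower, *FDPS* and *MVK*. Calls over all genes, in either direction, also rose without PF replicate 3, from 2876 to 3947, so the rise was not particular to the members. Without SF replicate 1, the 5 members called higher were *ABCA1*, *SREBF2*, *SQLE*, *DHCR7* and *ACAT2*, with 2804 genes called over all genes in either direction.

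For several of these genes, the spread within each stage went with the number that opens each library's name in the labels. Libraries 48 and 49 (SF replicates 2 and 3) and 46 and 47 (PF replicates 3 and 4) lie above 40, and libraries 26 (SF replicate 1) and 24 and 34 (PF replicates 1 and 2) lie below 40. The labels do not say what the number counts, and each class holds both stages. The comparison of the classes was chosen after the values had been seen, so its tests describe these libraries. The 4 libraries above 40 exceeded the 3 below 40 without overlap for 6 of the 27 genes, *ACAT2*, *HMGCS1*, *SQLE*, *CYP51A1*, *SC5D* and *INSIG1*, where 5.39% of all genes tested did so. No member had the opposite order, which 6.89% of all genes tested had.

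*INSIG1* had 264 to 1838 TPM in the 4 libraries above 40 (median 713 TPM) and 33.9 to 66.2 TPM in the 3 below 40. *CYP51A1* had 45.6 to 326 TPM above 40 and 11.9 to 15.0 TPM below 40. *SC5D* had 153 to 563 TPM above 40 and 25.2 to 39.8 TPM below 40. In these 3 genes the lowest library above 40 was at least 3 times the highest library below 40, whatever the stage. *HMGCS1* had 39.5 to 149 TPM above 40 and 13.5 to 21.5 TPM below 40. *SQLE* had 81.2 to 591 TPM above 40 and 20.0 to 45.3 TPM below 40, and *ACAT2* 58.7 to 179 TPM above 40 and 32.0 to 58.1 TPM below 40. *ACAT2* thus separated by a margin of less than 1 TPM.

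**Figure D4:**
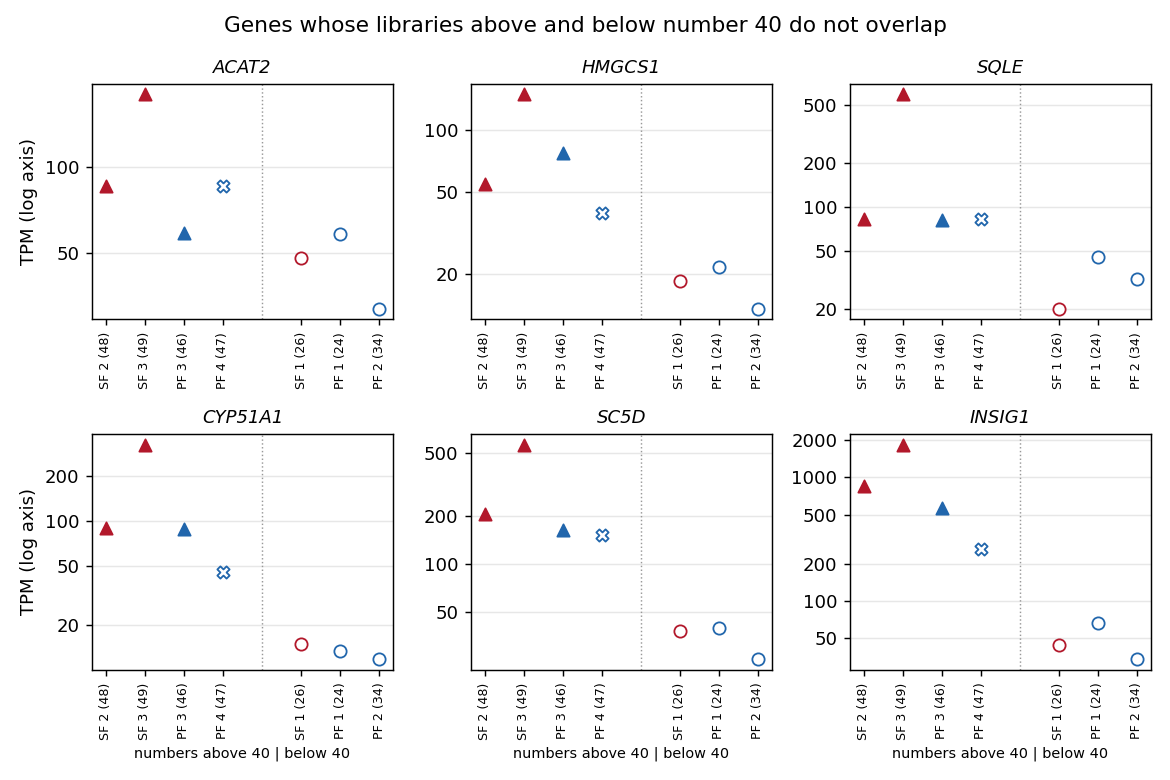
TPM (log axis) in each library for the 6 genes whose libraries numbered above and below 40 do not overlap. Filled triangles and crosses, left of the dotted line, are the 4 libraries above 40 (crosses are PF replicate 4), open circles are the 3 libraries below 40, SF is red and PF blue. For *INSIG1*, *CYP51A1* and *SC5D* the SF library below 40 lies with the PF libraries below 40 (43.9, 15.0 and 37.6 TPM in SF replicate 1).

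With stage and number class in one DESeq2 model on the same 6 libraries, 5 of 27 members were higher above 40 (18.5%), against 3.05% of the 19009 genes tested, and 0 were lower, against 1.58%. No member was lower at an unadjusted p under 0.05 with DESeq2 or edgeR. In either direction, 9 of the 27 members and 2610 of the 19009 genes had such a p with DESeq2. The share of all genes lower at that p was not counted, so the absence of lower members cannot be set against a background. *INSIG1* had a log2 fold change of 4.42 ± 0.49 (above 40 over below 40, DESeq2 adjusted p = 1.75e-16). It was followed by *CYP51A1* at 3.52 ± 0.56 (8.61e-08), *SC5D* at 3.08 ± 0.50 (1.38e-07), *SQLE* at 2.84 ± 0.80 (0.0116) and *HMGCS1* at 2.51 ± 0.49 (2.93e-05). *ACAT2* (1.14 ± 0.49, adjusted p = 0.218) and *IDI1* (1.86 ± 0.68, adjusted p = 0.102) did not pass. With PF replicate 4 added to the model, 5 members were again called higher, against 3.48% of all genes, and 0 lower, against 1.64%. The edgeR test called 0 members (6 at an unadjusted p under 0.05) and 4 of 14293 genes (1406 unadjusted), with its smallest member value at an adjusted p of 0.0772 for *INSIG1*. The call of *SQLE* rested on SF replicate 1 and was lost without it (adjusted p = 0.580).

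Within stages, the log2 ratio of libraries above 40 over those below 40 was 4.94 in SF and 3.50 in PF replicates 1 to 3 for *INSIG1*, 3.80 and 2.82 for *CYP51A1*, 3.35 and 2.33 for *SC5D*, 4.07 and 1.07 for *SQLE* and 2.47 and 2.14 for *HMGCS1*. The order of the classes was the same at both stages in all 5 genes. This was fixed by their lack of overlap between the classes and is no separate evidence. Within the libraries below 40, the log2 ratio of SF over PF was -0.19 for *INSIG1*, 0.25 for *CYP51A1*, 0.21 for *SC5D*, 0.07 for *HMGCS1* and -0.95 for *SQLE*, from 1 SF and 2 PF libraries. Within those above 40, with PF replicate 4 included, it was 1.70, 1.63, 1.28, 0.81 and 2.04 for the same genes in the same order, from 2 libraries of each stage. With the number class as a covariate, the comparison by stage called *ABCA1*, *SREBF2* (adjusted p = 0.0477), *NPC2* (adjusted p = 0.0124) and *FDPS*, the same 4 members as without it.

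Within each stage the summed oocyte markers were lower in the libraries above 40, at 1366 and 235 TPM above 40 and 1779 TPM below 40 in SF, and at 2477 and 388 TPM above 40 and 4787 and 4677 TPM below 40 in PF. Immune markers did not overlap between the classes, at 4.03 to 41.3 TPM above 40 and 48.2 to 89.3 TPM below 40. *CSF1R*, most of that sum in PF replicates 1 to 3, did overlap, at 1.82 to 31.5 TPM above 40 and 11.6 to 89.2 TPM below 40. Endothelial markers were at 20.9 to 44.9 TPM above 40 and 44.4 to 102 TPM below 40. The other sums overlapped, with granulosa markers at 920 to 3997 TPM above 40 and 1325 to 3123 TPM below 40, theca markers at 166 to 1515 TPM above 40 and 251 to 299 TPM below 40, and smooth muscle markers at 69.2 to 1034 TPM above 40 and 136 to 247 TPM below 40. Stromal markers were at 241 to 5855 TPM above 40 (to 634 TPM without PF replicate 4) and 426 to 547 TPM below 40. Their part in the difference by number was not tested. Among transcripts, 1 predicted *SC5D* model (2736 bases) was listed at 0 TPM in all 3 libraries below 40 and at 30.7 to 112 TPM in all 4 above 40. It was named after its values had been seen. Another predicted model of similar length (2772 bases) took 82.0% to 96.5% of the *SC5D* counts in the libraries below 40. How reads shared by the models were divided between them was not tested.

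Wider lists of the same pathways put the members in context. Of 61 further genes, 58 were tested, and 10 were higher and 2 lower in SF (17.2% and 3.45%, against 8.14% and 11.0% of all genes), with a median log2 fold change of 0.58. The 8 called genes with the smallest adjusted p are described here. Among 9 genes of the isoprenoid branches, 1 was lower and 0 higher. This gene was *PDSS1*, a subunit of the enzyme that makes the side chain of coenzyme Q, with 35.4, 23.8 and 20.2 TPM in SF, against 78.8, 119 and 67.7 TPM in PF (-1.64 ± 0.37, DESeq2 adjusted p = 0.000345). The enzyme uses the product of *FDPS*, the member that was lower in SF, but a link between these differences was not tested. PF replicate 4 had 24.6 TPM of *PDSS1*. The part of oocyte content in the *PDSS1* difference was not tested either. Among 6 tested genes of fatty acid synthesis linked to *SREBF1*, 2 were higher, led by *SCD*, the desaturase that makes oleate, with 43.1, 47.0 and 132 TPM in SF, against 17.3, 8.08 and 15.0 TPM in PF (2.62 ± 0.60, DESeq2 adjusted p = 0.000405).

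Of 12 genes of SREBP processing and sterol-sensing degradation, 2 were higher and 1 lower in SF. *MBTPS1*, the protease that makes the first cut in SREBP, had 84.2, 113 and 87.0 TPM in SF, against 39.6, 54.7 and 47.5 TPM in PF (1.09 ± 0.30, DESeq2 adjusted p = 0.00337). *ERLIN2*, an endoplasmic reticulum protein of sterol-dependent degradation, had 59.4, 80.0 and 64.2 TPM in SF, against 41.8, 36.9 and 34.0 TPM in PF (0.97 ± 0.25, DESeq2 adjusted p = 0.00203). *NFYC*, a subunit of the NF-Y factor that binds beside SREBP at promoters, had 68.1, 66.1 and 44.4 TPM in SF, against 154, 147 and 94.9 TPM in PF (-1.07 ± 0.28, DESeq2 adjusted p = 0.00218). In all 3 genes SF and PF replicates 1 to 3 did not overlap. With PF replicate 4 kept, the calls of *NFYC* (adjusted p = 0.337), *MBTPS1* (0.145) and *PDSS1* (0.103) were lost.

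Of 12 lipoprotein receptors and sterol carriers, 4 were higher and 0 lower. They included *LRP8*, a receptor of the same family as the lipoprotein receptors of the liver, with 9.39, 12.4 and 57.7 TPM in SF, against 5.64, 4.58 and 4.97 TPM in PF (2.46 ± 0.73, DESeq2 adjusted p = 0.00795). Its SF level was far above PF in SF replicate 3 alone, and the call was lost without PF replicate 1 (adjusted p = 0.0554) or PF replicate 2 (0.0517). *LRPAP1*, the chaperone of that receptor family, had 233, 158 and 167 TPM in SF, against 107, 101 and 87.8 TPM in PF (1.04 ± 0.29, DESeq2 adjusted p = 0.00448). PF replicate 4 had 285 TPM of *LRPAP1*, above all SF libraries, and with it kept the call was lost (adjusted p = 0.778). Of 8 genes of the LXR axis and oxysterol enzymes, 2 were higher and 0 lower. *RXRA*, a partner of the LXR receptors that switch on *ABCA1*, had 4.43, 3.97 and 3.69 TPM in SF, against 2.02, 1.70 and 1.58 TPM in PF (1.3 ± 0.36, DESeq2 adjusted p = 0.00402). This call was lost in 6 of 18 alternatives, among them the number covariate with PF replicate 4 kept (adjusted p = 0.116). No gene was called among 7 partners of sterol synthesis and 4 tested genes of ester formation and lysosomal hydrolysis.

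By library number, 3 of 59 tested genes of the wider lists were higher and 1 lower above 40 (5.08% and 1.69%, against 3.05% and 1.58% of all genes), and these were named after their values had been seen. *MYLIP*, the ligase that marks lipoprotein receptors for degradation, had 64.1 to 193 TPM above 40 and 15.6 to 55.2 TPM below 40 (2.45 ± 0.50, DESeq2 adjusted p = 5.56e-05). *NFYA*, another NF-Y subunit, had 18.4 to 39.6 TPM above 40 and 9.23 to 16.3 TPM below 40 (1.38 ± 0.34, DESeq2 adjusted p = 0.00187). *NR1H2*, an LXR gene, had 0.649 to 13.2 TPM above 40 and was listed at 0 TPM in 2 of the 3 libraries below 40 (DESeq2 adjusted p = 0.0128). *SYVN1*, a ligase of endoplasmic reticulum degradation, had 8.14 to 32.6 TPM above 40 and 19.5 to 22.9 TPM below 40. The calls of *MYLIP*, *NFYA* and *NR1H2* were lost without SF replicate 1 (adjusted p = 0.0903, 0.219 and 0.428), and that of *SYVN1* (-1.01 ± 0.31, DESeq2 adjusted p = 0.0274) was lost in all 8 alternatives.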

How the data were processed

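RNA of pooled follicles was amplified as full-length cDNA (SMART-Seq v4) and sequenced without molecular identifiers. The authors trimmed the reads (Trim Galore, named in the submitters' processing notes, with no version there) and quantified them with Salmon against the bovine ARS-UCD1.3 transcriptome. The deposited tables give, per transcript, the estimated count, the TPM value and the effective length, 1 table per library. Of 76123 transcripts, 50205 (66.0%) were matched by accession, ignoring version, to 23704 genes of a RefSeq gene table of assembly ARS-UCD2.0, which was used for names only.

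Estimated counts and TPM were summed per gene, and the counts were rounded. DESeq2 1.42.0 (R 4.3.3) tested SF over PF on SF replicates 1 to 3 and PF replicates 1 to 3 with the Wald test, size factors, independent filtering and Benjamini-Hochberg adjustment over all genes, at 0.05. The same model with library number class (below or above 40) gave the comparison by number, which was added after seeing the data. Alternatives were edgeR 4.0.16, limma 3.58.1 on log2(TPM + 1 or 0.1) with and without a filter (1 TPM in 3 libraries), TMM factors, a length offset, a count filter (10 in 3 libraries), unmatched transcripts kept, PF replicate 4 kept, each library left out, the replicate number as a block, the number class as covariate and a threshold of 0.01. The scripts were tested on simulated data. No pair of libraries within a stage was a duplicate by a chi-square test of counts.

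The members and lists were chosen with earlier results of these data known. All members were named. From the wider lists, called genes were named up to 8 by smallest adjusted p. The libraries differed little in depth (18788105 to 23764615 counts), and errors are SE of the fit or SD over libraries.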

Additional observations from a re-analysis of the deposited data

Results flagged for a closer look

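*NPC1* in PF replicate 4 lay far from the other PF libraries. Its level was 4.28, 4.60 and 16.6 TPM in SF, against 11.3 TPM in PF replicate 4 and 3.20, 3.75 and 4.06 TPM in PF replicates 1 to 3. The check was made on 32 values over the 4 PF libraries (27 genes and 5 sums), and chance alone marks about 1 in 20, so that 1 mark is no more than chance gives.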

How the results depend on the processing

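Over the stage alternatives, the count of genes called (2876) was 858 with PF replicate 4 kept, 1071 with that library and the number covariate, 792, 2 and 0 with limma (pseudocount 1, pseudocount 0.1, no filter), 0 with edgeR and 1588 at an adjusted p of 0.01. It was 1887 to 3947 with 1 library left out, lowest without PF replicate 2 and highest without PF replicate 3. Members called higher (3) numbered 1 with PF replicate 4 kept, with or without the covariate, 1 at the threshold of 0.01, and 0 with edgeR and each limma fit. Members called higher were 2 to 7 with 1 library left out. Members called lower (1) numbered 0 with PF replicate 4 kept, with or without the covariate, with edgeR and with limma at 0.1 or unfiltered, and 1 to 2 with 1 library left out. Members higher by library number (5) numbered 0 with edgeR and 4 to 7 with 1 library left out. With 1 library left out, the log2 ratio of sums was 0.29 to 1.45 for sterol genes and -0.25 to 0.85 for all synthesis enzymes.

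With the replicate number as a block, 4077 genes were called and 6 members were called higher, and the call of *RXRA* was lost (adjusted p = 0.0695). Same-numbered libraries deviated from their group means with correlations of 0.26, -0.04 and 0.40. SF replicate 1 was about as close to PF replicate 2 (0.27) as to PF replicate 1. With so few libraries, these values cannot decide whether same-numbered libraries share an origin. Log2 fold changes turned negative without SF replicate 3, in a range over left-out libraries of -0.13 to 2.38 for *HMGCS1*, -0.87 to 1.18 for *IDI1*, -0.053 to 0.65 for *FDFT1* and -0.030 to 3.03 for *SQLE*. They also did so for *IDI1* with the block (-0.035), the covariate (-0.42) and limma (-0.16), and for *SCARB1* with PF replicate 4 kept (-0.24, or -0.091 with the covariate), none of these negative values past the test. The cause was not tested. Depth was not varied, so its limit on the calls was not tested.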
